A study of Mus musculus with 8 samples.

Results

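The genes described here are the regulators of the RhoA, Rac and Cdc42 family of small GTPases that carry an ARHGAP, ARHGEF, DOCK, VAV or FGD symbol. They were measured by RNA sequencing in macrophages differentiated from mouse bone marrow, either wild type or with the Sept2C111A allele, in which, by its name, a cysteine of the cytoskeletal GTPase septin 2 is replaced by alanine. Both genotypes were treated with TNF-α (30 ng/ml, 24 h), and no untreated cells enter the comparison. Each genotype had 4 libraries, and the labels give no strain, age or sex, do not say whether the allele was homozygous, and do not say that the libraries came from separate mice or cultures, so the spread that p-values measure may be technical. Of 17364 gene symbols in the files, 77 matched the naming pattern, and 69 of them had at least 10 expected counts in at least 4 of the 8 libraries. These 69 members were 30 ARHGAP, 21 ARHGEF, 10 DOCK, 3 VAV and 5 FGD genes. Within the naming pattern, members were chosen by their expected counts, a rule that did not use genotype, and all 69 passed the filter of the test. The gene family itself was picked with earlier results of these data known. Just inside the minimum, Arhgef33 reached it in 6 libraries and Arhgef28 and Arhgap44 in 7. Outside it, Dock3 and Arhgap20 had at most 6 and 5 counts in any library, and Arhgap8, Arhgef15, Arhgef16, Arhgef26, Arhgef38 and Fgd5 lay lower still.

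RhoA, Rac and Cdc42 proteins are molecular switches that control actin, adhesion and cell movement. Guanine nucleotide exchange factors (GEFs) load them with GTP and switch them on, and GTPase-activating proteins (RhoGAPs) speed up GTP hydrolysis and switch them off. The ARHGEF, VAV and FGD proteins act through a Dbl homology domain, DOCK proteins through an unrelated DHR domain. In macrophages these regulators are known for their part in chemotaxis, phagocytosis and podosome turnover.

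In the Sept2C111A libraries, 6 RhoGAP genes and the GEF gene Fgd4 had more RNA and 2 GEF genes, Arhgef17 and Arhgef25, had less. Arhgap19 and Arhgap18 had the largest rises, 2.03-fold and 1.80-fold, and the other 4 RhoGAP genes, Arhgap15, Arhgap45, Arhgap25 and Arhgap9, rose 1.23-fold to 1.42-fold. Calls are genes with an adjusted p under 0.05 in the quasi-likelihood test of edgeR, adjusted over all 12462 tested genes. In all, 9 of 69 members were called, or 13.0%, where 6.46% of all tested genes were called. Because the family was picked with earlier results known, the difference between these shares was not tested. The shares of all tested genes called higher and lower were 3.43% and 3.03%, beside 7 and 2 of the 69 members. At an unadjusted p under 0.05 there were 23 of the 69 members, and 3092 of 12462 tested genes, or 24.8%. The median log2 fold change was -0.06 over the members and 0.01 over all tested genes, and the median absolute log2 fold change was 0.18 and 0.14. The groups did not overlap in 14 members, 7 with Sept2C111A above and 7 below, or 20.3%, where 16.9% of all tested genes did not overlap, 8.47% above and 8.47% below. DESeq2 called 13 members (11.6% of all tested genes), limma voom 8 (6.52%), the edgeR fit with a replicate block 6 (3.96%), and the edgeR fit without Sept2C111A libraries 2 and 3 called 7 (3.86%). All libraries measure whole cultures, in which fewer cells of a type and less RNA per cell cannot be told apart.

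**Figure D1:**
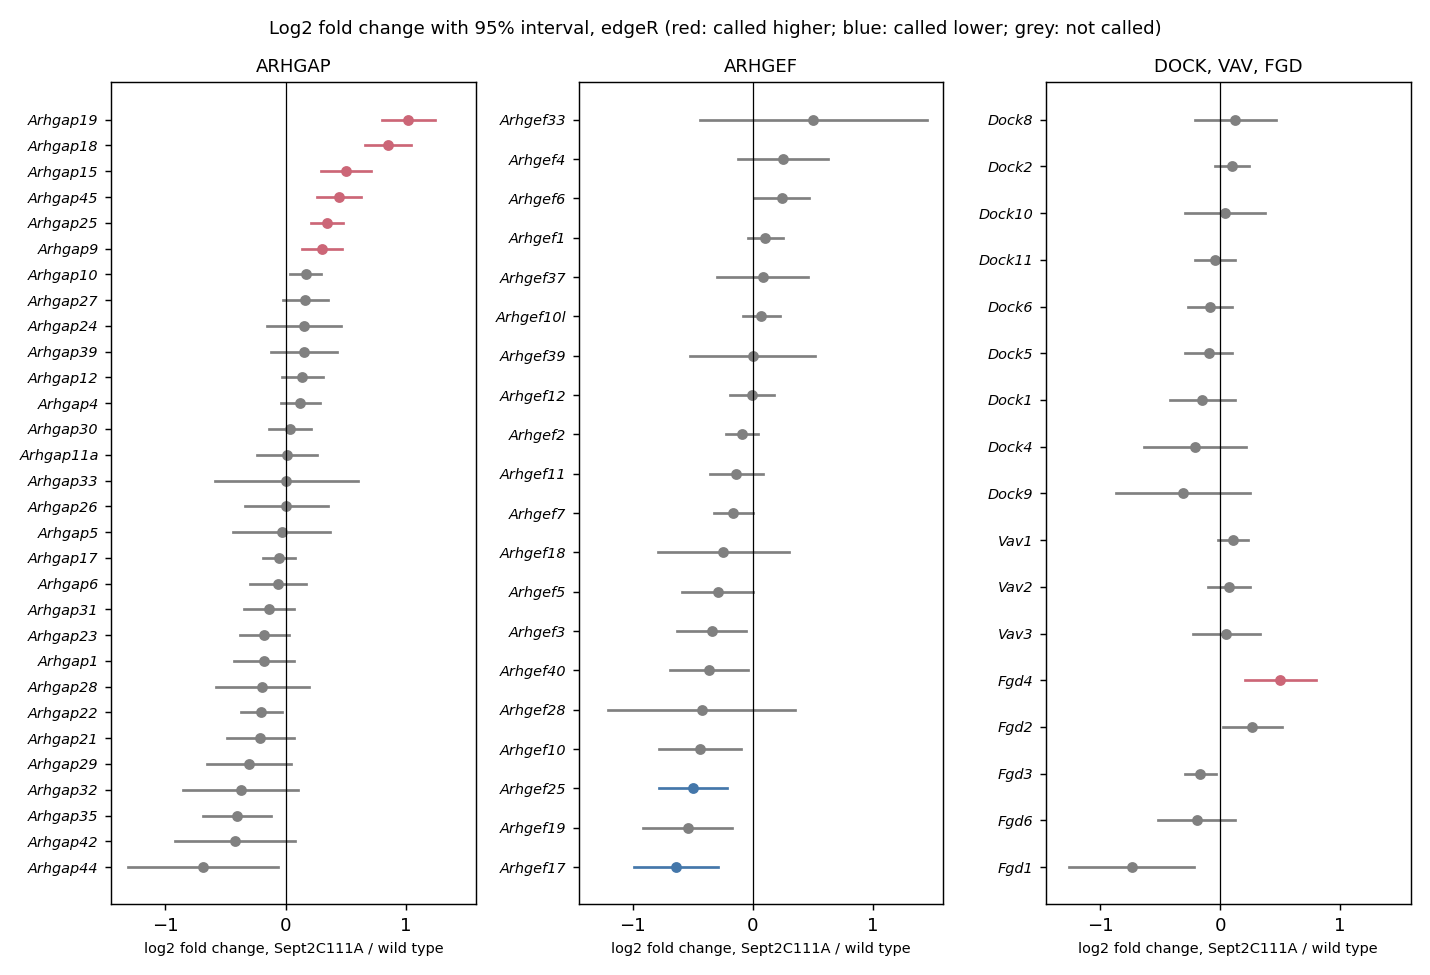
Log2 fold change of Sept2C111A over wild type for 67 of the 69 members, with the 95% interval of the edgeR fit, by subfamily. The 7 genes in red were called higher and the 2 in blue lower, and all plotted DOCK and VAV genes are grey, that is, not called.

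Sequencing depth was even, at 19543973 to 21288521 rounded counts per library, and a gene without a read lay below 0.140 to 0.159 CPM (reads scaled to a common, normalized library size), the level of 3 counts, by counting error only. Septin2, the gene that carries the allele, measured 228, 226, 216 and 234 CPM in wild-type libraries 1 to 4 and 187, 195, 207 and 163 CPM in Sept2C111A libraries 1 to 4 (log2 fold change -0.27, edgeR adjusted p = 0.0627). Gene counts cannot show the edited codon. All 10 macrophage markers were present, and their summed level was 24253 to 25996 CPM in wild-type and 21913 to 24053 CPM in Sept2C111A libraries, without overlap. Lyz2 made up the largest part of this sum. Its mean went down from 14365 to 12366 CPM and was not called (log2 fold change -0.22, edgeR adjusted p = 0.120). Adgre1, Itgam, Cd14 and Mrc1 also had negative log2 fold changes, whereas those of Csf1r, Cd68, Mertk, Fcgr1 and Spi1 were positive. The sum thus does not show a shift shared by all 10 markers. Of these markers 1 was called, the Fc receptor gene Fcgr1, which rose from 84.9 ± 11.3 to 193 ± 39.9 CPM (mean ± SD, n = 4, edgeR adjusted p = 0.00109). The summed level of 12 stromal markers was 4447 to 5772 CPM in wild-type and 3506 to 4459 CPM in Sept2C111A libraries. That of 6 smooth muscle markers was 1192 to 1588 and 701 to 1081 CPM, and that of 10 proliferation markers 91.6 to 95.9 and 57.6 to 76.1 CPM. Among the 10 proliferation markers 1 was called, Mki67, which also made up the largest part of their sum. Neutrophil, dendritic, endothelial and lymphoid marker sums were at most 11.5 CPM, and no marker found in the files was at 0 in all libraries. Sept2C111A libraries 2 and 3 stood apart from the others on the first principal component of all genes, at 28.2 and 36.6, where libraries 1 and 4 lay at 0.87 and -1.98.

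Arhgap19, which encodes a RhoGAP that acts on RhoA, measured 17.9, 20.8, 19.7 and 19.8 CPM in the wild-type libraries and 34.7, 35.5, 42.8 and 45.9 CPM in the Sept2C111A libraries. The groups lay far apart, and every Sept2C111A library was above every wild-type library. This was a log2 fold change of 1.02 (SE 0.10, edgeR adjusted p = 0.000426). Arhgap18, another RhoGAP of RhoA, measured 24.2, 26.8, 26.4 and 25.6 CPM in wild-type and 41.3, 42.9, 48.1 and 53.4 CPM in Sept2C111A libraries. In both genes the highest library was Sept2C111A library 4 and the next was library 3. The log2 fold change of Arhgap18 was 0.85 (SE 0.0871, edgeR adjusted p = 0.000477). Both rises were called in all 18 other fits, with log2 fold changes of 0.94 to 1.08 for Arhgap19 and 0.78 to 0.90 for Arhgap18. Without Sept2C111A libraries 2 and 3 together they were 1.04 and 0.88. Arhgap19 lies at chr19:41766588-41802084 and Arhgap18 at chr10:26772408-26918648 (mm10), and no other RefSeq gene overlaps either.

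Arhgap19 and Arhgap18 have RefSeq start sites whose upstream 250 bases are shown because these are the members that moved most. The windows of Arhgap25 and of the downstream start of Arhgap15 are shown as examples from the other RhoGAP genes that rose, with a motif match in each. The coordinates are chr19:41802085-41802334 on the minus strand, chr10:26772262-26772511 on the plus strand, chr6:87533260-87533509 on the minus strand and chr2:43787105-43787354 on the plus strand (RefSeq, GRCm38.p6, the mm10 build). Each is written 5′ to 3′ towards the start site, and capitals mark matches on either strand to the motifs searched.
Arhgap19: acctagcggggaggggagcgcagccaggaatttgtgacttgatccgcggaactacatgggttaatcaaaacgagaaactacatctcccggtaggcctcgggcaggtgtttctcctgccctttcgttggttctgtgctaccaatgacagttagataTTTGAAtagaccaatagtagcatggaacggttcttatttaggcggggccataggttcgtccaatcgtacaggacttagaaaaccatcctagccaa
Arhgap18: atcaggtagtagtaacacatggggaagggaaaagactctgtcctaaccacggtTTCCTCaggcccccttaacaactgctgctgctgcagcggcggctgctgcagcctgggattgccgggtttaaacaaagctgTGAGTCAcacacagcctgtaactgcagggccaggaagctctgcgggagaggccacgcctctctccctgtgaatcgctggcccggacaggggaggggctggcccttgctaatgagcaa
Arhgap25: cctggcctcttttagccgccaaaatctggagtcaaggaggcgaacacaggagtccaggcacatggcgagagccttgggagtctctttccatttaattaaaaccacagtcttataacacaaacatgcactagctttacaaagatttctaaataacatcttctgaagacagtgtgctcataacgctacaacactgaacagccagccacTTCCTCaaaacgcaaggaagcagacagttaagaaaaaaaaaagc
Arhgap15: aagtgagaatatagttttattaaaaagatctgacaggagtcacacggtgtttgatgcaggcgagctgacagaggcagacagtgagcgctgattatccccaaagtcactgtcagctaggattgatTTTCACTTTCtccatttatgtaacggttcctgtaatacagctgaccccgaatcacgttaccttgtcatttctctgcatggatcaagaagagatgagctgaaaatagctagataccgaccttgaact

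The motifs were a core of the interferon-stimulated response element (GAAA, 2 bases of any kind, GAAA), an NF-κB motif (GGG, 2 bases of any kind, TTTCC), the AP-1 motif TGANTCA, the PU.1 core GAGGAA and the cell cycle homology region TTTGAA. Each was searched separately on both strands, so matches of different motifs may overlap. The Arhgap19 window held TTTGAA, which 16.0% of all 32851 windows held. The Arhgap18 window held TGANTCA, found in 6.75% of windows, and GAGGAA, found in 23.3%, and the Arhgap25 window held GAGGAA. The Arhgap15 window held the interferon element, found in 2.98% of windows. No motif was in all 4 windows, and the choice of window matters: the other Arhgap15 window held none of the motifs, and the other Arhgap25 window held GAGGAA. Of the windows not printed, 1 of 3 for Arhgap45 held GAGGAA, and for Fgd4 1 of 3 held GAGGAA and another TGANTCA. Over the 85 windows of the 53 members in the table, GAGGAA was in 32.9%, TTTGAA in 5.88%, TGANTCA in 7.06%, the interferon element in 2.35% and the NF-κB motif in 1.18% (1.41% of all windows). A match is a description of the letters only. Windows were not used for Arhgap9, Arhgef17 and Arhgef25.

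Arhgap25 encodes a RhoGAP of Rac found in phagocytes, and it measured 38.7, 41.1, 41.5 and 41.3 CPM in wild-type and 49.1, 50.7, 54.2 and 52.6 CPM in Sept2C111A libraries. Its change was smaller than that of Arhgap18, but the spread within each group was narrow (log2 fold change 0.35, SE 0.0599, edgeR adjusted p = 0.00803), and all 18 other fits called it. Arhgap15, a further RhoGAP of Rac in blood cells, measured 11.4, 13.5, 10.4 and 12.8 CPM in wild-type and 16.1, 17.5, 16.4 and 18.1 CPM in Sept2C111A libraries. Again the groups did not overlap (log2 fold change 0.50, SE 0.0954, edgeR adjusted p = 0.0126), and the call was lost only without wild-type library 1 (adjusted p = 0.0556). Arhgap45, which encodes a RhoGAP with a BAR domain and the source of the minor histocompatibility antigen HA-1, measured 103, 102, 97.7 and 103 CPM in wild-type and 124, 150, 155 and 123 CPM in Sept2C111A libraries. Here libraries 2 and 3 were the high ones of Sept2C111A. Its log2 fold change was 0.45 (SE 0.0835, edgeR adjusted p = 0.0117) and 0.29 without libraries 2 and 3 (adjusted p = 0.0195), and the call was lost without wild-type library 3 (adjusted p = 0.0586).

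Arhgap9, a RhoGAP gene of blood cells for Rac and Cdc42, measured 47.4, 48.9, 45.5 and 46.7 CPM in wild-type and 52.0, 60.8, 64.5 and 55.5 CPM in Sept2C111A libraries. The groups did not overlap, and libraries 2 and 3 were again the highest. Arhgap9 had a log2 fold change of 0.30 (SE 0.0749, edgeR adjusted p = 0.0367). It was the least stable of the RhoGAP calls: it was lost on leaving out each wild-type library alone, or Sept2C111A library 2 or 3 alone (adjusted p 0.054 to 0.133), with a replicate block (0.0833), and without libraries 2 and 3 together, where the log2 fold change was 0.19 (adjusted p = 0.146). Arhgap9, Arhgap18, Arhgap45 and the GEF gene Arhgef25 lie on chromosome 10, which holds 5 members, of which 4 were called. Of all tested genes on that chromosome 7.81% were called. Arhgap9 lies at chr10:127321913-127329947 and overlaps Gli1, which was not among the tested genes, and Arhgap45 lies far from it at chr10:80016672-80031471. The other risers lie at chr6:87458544-87533261 (Arhgap25) and chr2:43748798-44395953 (Arhgap15), the latter overlapping Arhgap15os and unnamed gene models. The tally by chromosome was chosen after its values were seen.

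**Figure D2:**
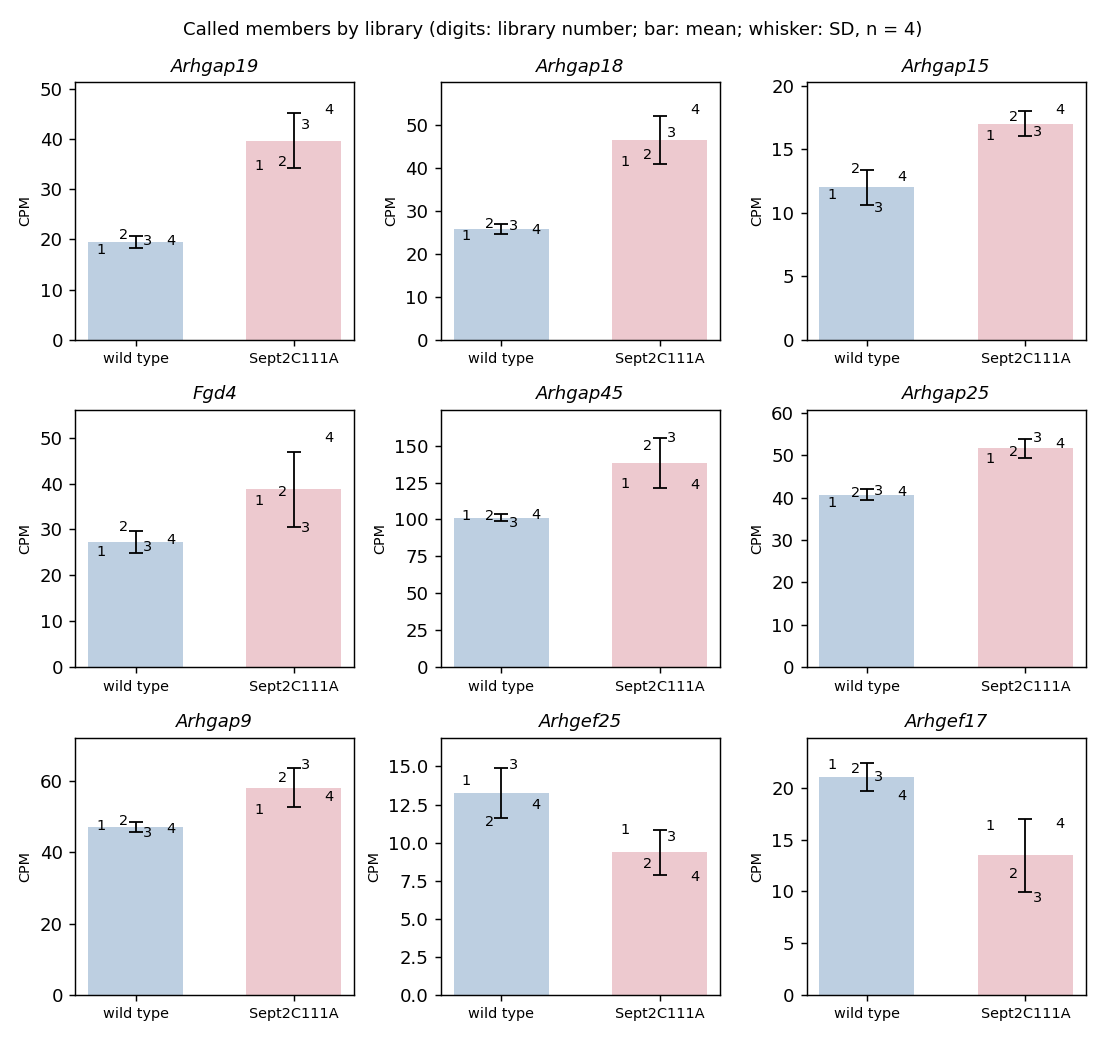
CPM of the 9 called members in each library, with digits for the library number, bars for the mean and whiskers for the SD over 4 libraries. In 8 genes no Sept2C111A library reaches the wild-type range, and in Fgd4 Sept2C111A library 3 lies just below wild-type library 2.

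The 24 RhoGAP genes that were not called had log2 fold changes from -0.69 to 0.17. The lowest was in Arhgap44, one of the least abundant members. Arhgap35, which encodes a major RhoGAP of RhoA downstream of adhesion, measured 36.2, 37.8, 38.5 and 39.9 CPM in wild-type and 30.1, 29.4, 20.7 and 34.9 CPM in Sept2C111A libraries. It was below wild type in every Sept2C111A library, with library 3 far below the rest, and was not called (log2 fold change -0.41, SE 0.128, edgeR adjusted p = 0.0817). Arhgap10, a RhoGAP gene with a BAR domain, measured 119 to 128 CPM in wild-type and 130 to 145 CPM in Sept2C111A libraries, without overlap and not called (edgeR adjusted p = 0.106). Arhgap30, the RhoGAP gene with the highest mean CPM, measured 165 to 191 and 159 to 200 CPM, and its log2 fold change of 0.04 had a 95% interval of -0.14 to 0.21. Arhgap11a, a RhoGAP gene linked to cell division and chosen after its values were seen, had a log2 fold change of 0.01 (edgeR adjusted p = 0.965). In the same libraries the proliferation marker Mki67 fell from 48.4 ± 1.46 to 28.9 ± 3.64 CPM (mean ± SD, n = 4, edgeR adjusted p = 0.000876), 1 of the 10 proliferation markers called. Its part in the RhoGAP values was not tested. Across the subfamily 16 log2 fold changes were positive and 14 negative. The Sept2C111A libraries lay above all wild-type libraries in 7 of the 30 genes and below them in 2. Over all tested genes these shares were 8.47% above and 8.47% below.

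Of the remaining RhoGAP genes, only Arhgap22 had groups that did not overlap. Arhgap31, a RhoGAP of Cdc42 and Rac, measured 116 to 129 CPM in wild-type and 91.0 to 129 CPM in Sept2C111A libraries, and Arhgap1, the ubiquitous p50 RhoGAP, 80.2 to 95.4 and 60.1 to 91.9 CPM. In both, Sept2C111A library 3 was the low one and library 4 lay within the wild-type range. Arhgap4, a RhoGAP of blood cells, had the opposite order, at 104, 110, 118 and 94.7 CPM in Sept2C111A libraries 1 to 4 beside 93.9 to 102 CPM in wild type (log2 fold change 0.12, 95% interval -0.04 to 0.29). Arhgap17, known as RICH1, varied little, at 94.6 to 101 and 89.4 to 102 CPM. Arhgap22, a RhoGAP of Rac, measured 56.4, 61.5, 57.5 and 62.5 CPM in wild-type and 51.5, 55.5, 54.9 and 44.8 CPM in Sept2C111A libraries. Every Sept2C111A library was lower, and the gene was not called (log2 fold change -0.20, edgeR adjusted p = 0.140). Arhgap21 and Arhgap23, which are close relatives with a PDZ domain, had log2 fold changes of -0.21 and -0.18. Arhgap5, the relative of Arhgap35, did not follow it: at 20.6 to 25.2 CPM in wild-type and 15.2 to 31.3 CPM in Sept2C111A libraries its log2 fold change was -0.03, with a 95% interval of -0.44 to 0.37. The difference between the Arhgap5 and Arhgap35 changes was not tested. Arhgap12, Arhgap24, Arhgap27 and Arhgap39 had log2 fold changes of 0.14 to 0.17, and Arhgap29, Arhgap32 and Arhgap42 of -0.42 to -0.30. Arhgap6, Arhgap26, Arhgap28 and Arhgap33 had values from -0.19 to 0.01, and of these 11 genes none was called by edgeR, with 0 at an unadjusted p under 0.05. Over all tested genes these shares were 6.46% and 24.8%. Leaving out Sept2C111A library 4 alone added calls of Arhgap29, Arhgap35 and Arhgap42, in a fit that called 16.5% of all tested genes. DESeq2, which called 11.6%, added Arhgap10 and Arhgap35, and voom with sample weights, which called 10.8%, added Arhgap35.

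Of the 21 ARHGEF genes 2 fell and 0 rose, where 3.03% of all tested genes were called lower. The log2 fold change was negative for 14 of them, beside 6002 of 12462 tested genes, and the subfamily median was -0.16. Arhgef17, a RhoA exchange factor linked to cell junctions, measured 22.2, 21.8, 21.0 and 19.2 CPM in wild-type and 16.3, 11.7, 9.41 and 16.6 CPM in Sept2C111A libraries. All Sept2C111A libraries were lower, and libraries 2 and 3 were far below libraries 1 and 4. Arhgef17 had a log2 fold change of -0.64 (SE 0.158, edgeR adjusted p = 0.0365). Without libraries 2 and 3 it was -0.36 (adjusted p = 0.0427). The call ended when each wild-type library in turn, or Sept2C111A library 2, was left out (adjusted p 0.0681 to 0.114), and also in the blocked fit (0.0544).

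Arhgef25, a RhoA exchange factor activated by Gq proteins and known from smooth muscle, measured 14.1, 11.4, 15.1 and 12.5 CPM in wild-type and 10.8, 8.59, 10.4 and 7.71 CPM in Sept2C111A libraries. The groups came close, wild-type library 2 being the lowest of its group and Sept2C111A library 1 the highest of the other (log2 fold change -0.50, SE 0.129, edgeR adjusted p = 0.0450). The call ended without Sept2C111A library 2 and without wild-type library 1, 3 or 4 (adjusted p 0.0842 to 0.151), as did leaving out libraries 2 and 3 together (0.0935). Arhgef17 lies at chr7:100869746-100932161 and Arhgef25 at chr10:127182521-127190083. The smooth muscle marker sum, over 6 genes of which 3 were called lower, was 1478, 1192, 1588 and 1396 CPM in wild-type libraries 1 to 4, and 1081, 701, 932 and 972 CPM in Sept2C111A libraries 1 to 4. Among the 12 stromal markers 3 were called lower, and Col1a1 fell from 2056 ± 257 to 1545 ± 168 CPM (mean ± SD, n = 4, edgeR adjusted p = 0.0453). Acta2 made up the largest part of the smooth muscle sum, with a wild-type mean of 1016 CPM, followed by Tagln at 322 CPM. Myh11 and Des, on the same list, had wild-type means of only 0.52 and 0.76 CPM. Whether smooth muscle or stromal cells were present was not tested, nor was any part of such cells in the values of Arhgef17 and Arhgef25.

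Arhgef19 and Arhgef10 had the smallest p among the ARHGEF genes that were not called, both encoding RhoA exchange factors. Arhgef19 measured 5.49, 3.82, 4.72 and 4.25 CPM in wild-type and 3.88, 2.60, 2.75 and 3.26 CPM in Sept2C111A libraries, an overlap of 1 library (edgeR adjusted p = 0.0761). Arhgef10 measured 3.96 to 4.87 CPM in wild-type and 2.60 to 3.92 CPM in Sept2C111A libraries, without overlap (edgeR adjusted p = 0.114). Arhgef19 was called lower by DESeq2 and by edgeR without Sept2C111A library 1, and Arhgef10 and Arhgef40 by edgeR without Sept2C111A library 4. The abundant members moved little. Arhgef2, an exchange factor of RhoA held on microtubules, measured 263 to 282 CPM in wild-type and 234 to 266 CPM in Sept2C111A libraries, and its log2 fold change of -0.09 had a 95% interval of -0.23 to 0.05. Arhgef1, the exchange factor coupled to G12 and G13 receptors, measured 158 to 173 and 162 to 190 CPM (log2 fold change 0.10, 95% interval -0.04 to 0.25). Arhgef7, an exchange factor of Rac and Cdc42 at adhesions, measured 96.0 to 104 and 76.7 to 93.7 CPM, lower in every Sept2C111A library and not called (edgeR adjusted p = 0.196). Arhgef18, whose protein is known to bind septins and which was picked with its values in view, had 4.34, 3.78, 5.52 and 4.53 CPM in wild-type and 5.72, 2.86, 2.34 and 4.30 CPM in Sept2C111A libraries. Its Sept2C111A libraries spread on both sides of the wild-type range (log2 fold change -0.25, 95% interval -0.79 to 0.30).

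Arhgef3, an exchange factor of RhoA also known as XPLN, measured 49.6, 65.4, 53.3 and 53.9 CPM in wild-type and 44.3, 51.4, 32.8 and 46.7 CPM in Sept2C111A libraries. Only Sept2C111A library 2 reached the wild-type range (log2 fold change -0.34, edgeR adjusted p = 0.136). Arhgef6, a Rac and Cdc42 exchange factor and the close relative of Arhgef7, had a positive log2 fold change of 0.24, at 31.1 to 39.5 CPM in wild-type and 33.9 to 46.6 CPM in Sept2C111A libraries (edgeR adjusted p = 0.181). These relatives thus had values of opposite sign, a difference that was not tested. Among the 3 exchange factors with an RGS domain that couple receptors to RhoA, Arhgef11 and Arhgef12 had log2 fold changes of -0.14 and -0.01 beside the 0.10 of Arhgef1. Arhgef10l measured 77.3 to 85.8 and 80.8 to 96.6 CPM (log2 fold change 0.07), where its relative Arhgef10 was at -0.44. Arhgef40 and Arhgef5 had log2 fold changes of -0.36 and -0.29, with Sept2C111A libraries 2 and 3 below the wild-type range in both. The 6 remaining genes were low, at most 4.73 CPM in any library. Among them, Arhgef4 and Arhgef37 had log2 fold changes of 0.25 and 0.08, and Arhgef39, linked to cell division, of 0.00. Arhgef28 and Arhgef33, at the count minimum, had intervals of -1.21 to 0.35 and -0.44 to 1.45. The Arhgef33 interval includes the log2 fold change of Arhgap18, 0.85, and the Arhgef28 interval includes a fall of that size.

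None of the 10 DOCK or 3 VAV genes was called by edgeR, 0 had an unadjusted p under 0.05, and 0 were called in any of the 18 other fits, DESeq2 and limma voom included. Over all tested genes edgeR called 6.46%, and 24.8% had an unadjusted p under 0.05. With so few genes, the absence of calls lies near the share over all genes. Dock2, the Rac activator of blood cells needed for chemotaxis, measured 192, 212, 189 and 188 CPM in wild-type and 198, 218, 205 and 215 CPM in Sept2C111A libraries. Wild-type library 2 lay inside the Sept2C111A range and the other 3 below it. The log2 fold change was 0.10 (SE 0.0630, edgeR adjusted p = 0.363) with a 95% interval of -0.04 to 0.24. Dock10, an activator of Cdc42 and Rac, varied more among libraries. Dock10 measured 66.8, 84.9, 70.9 and 68.2 CPM in wild-type and 71.0, 76.2, 54.2 and 97.6 CPM in Sept2C111A libraries, so that Sept2C111A held both the lowest and the highest library. Its 95% interval of -0.29 to 0.37 was accordingly wide. Dock1, a Rac activator that works with ELMO proteins in engulfment, measured 24.7 to 28.6 CPM in wild-type and 18.3 to 29.0 CPM in Sept2C111A libraries (95% interval -0.42 to 0.12). Dock8, a Cdc42 activator of leukocytes, measured 51.6, 64.6, 51.8 and 51.6 CPM in wild-type and 56.3, 56.8, 45.2 and 81.0 CPM in Sept2C111A libraries, the widest spread coming again from libraries 3 and 4 (95% interval -0.21 to 0.46). Its relative Dock11, a Cdc42 activator as well, was steadier, at 49.2 to 57.2 and 46.0 to 55.8 CPM (95% interval -0.21 to 0.12). Dock5 and Dock6 had log2 fold changes of -0.10 and -0.08, and Dock9, near 1 CPM, of -0.31 with a 95% interval of -0.87 to 0.25.

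Vav1, the exchange factor of blood cells that tyrosine kinases activate, measured 171, 179, 181 and 177 CPM in wild-type and 178, 197, 197 and 192 CPM in Sept2C111A libraries. Of the Sept2C111A libraries 3 lay above all wild-type libraries and library 1 within them (log2 fold change 0.11, 95% interval -0.02 to 0.24, edgeR adjusted p = 0.267). The more widely expressed Vav2 and Vav3 measured 45.4 to 49.0 and 32.4 to 38.7 CPM in wild-type libraries, and 42.7 to 55.0 and 27.8 to 45.5 CPM in Sept2C111A libraries. Their log2 fold changes were 0.08 and 0.05, and both groups overlapped.

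FGD proteins are exchange factors of Cdc42 with a FYVE domain. Fgd4, which encodes the actin-binding frabin, measured 25.0, 30.6, 26.1 and 27.7 CPM in wild-type and 36.1, 38.3, 30.4 and 50.0 CPM in Sept2C111A libraries. Library 4 was the highest and library 3 fell within the wild-type range. The log2 fold change was 0.50 (SE 0.133, edgeR adjusted p = 0.0492). The call ended when each wild-type library in turn, or Sept2C111A library 1 or 2, was left out (adjusted p 0.0575 to 0.145), with limma voom (0.0571) and with the replicate block (0.0522). Fgd1 measured 2.10, 3.36, 3.49 and 2.48 CPM in wild-type and 2.32, 1.64, 1.17 and 1.70 CPM in Sept2C111A libraries, a log2 fold change of -0.74 that was not called (SE 0.236, edgeR adjusted p = 0.0860). DESeq2 called it lower (adjusted p = 0.0449), as did edgeR without Sept2C111A library 1 (0.0475), where 7.76% of all tested genes were called. Fgd3, the most abundant by CPM, lay at 80.4 to 88.1 CPM in wild-type and 72.2 to 78.8 CPM in Sept2C111A libraries, without overlap and not called (edgeR adjusted p = 0.112). Fgd2, known from antigen-presenting cells, measured 48.9 to 58.3 and 56.6 to 78.8 CPM (edgeR adjusted p = 0.169), and Fgd6 15.8 to 20.8 and 12.1 to 20.1 CPM (adjusted p = 0.432). Within this small subfamily the log2 fold changes thus ran from -0.74 to 0.50.

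Levels of different genes were compared as CPM per kilobase of the longest coding transcript. On this scale the highest member levels in wild-type libraries were those of Arhgef2 (61.1 ± 1.83 CPM per kb, mean ± SD, n = 4) and Vav1 (59.7 ± 1.44), which did not differ beyond their spread. Arhgef1 followed at 47.1 ± 2.04, then Arhgap10 at 40.0 ± 1.18 and Arhgap30 at 39.7 ± 2.42, which again lay within their spread of each other, and Dock2 at 30.5 ± 1.79. Thus the top 6 held members of 4 subfamilies. Of the 69 members 20 had at least 10 CPM per kb, 32 had 1 to 10 and 17 had less than 1. By summed level per length over all 8 libraries the ARHGAP genes made up 44.8% of the members' RNA, the ARHGEF genes 26.9%, the VAV genes 11%, the DOCK genes 10.8% and the FGD genes 6.47%. The 2 genes with the largest rises were not among the most abundant. On the same scale Arhgap18 had 7.05 CPM per kb in wild type and Arhgap19 had 3.83.

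**Figure D3:**
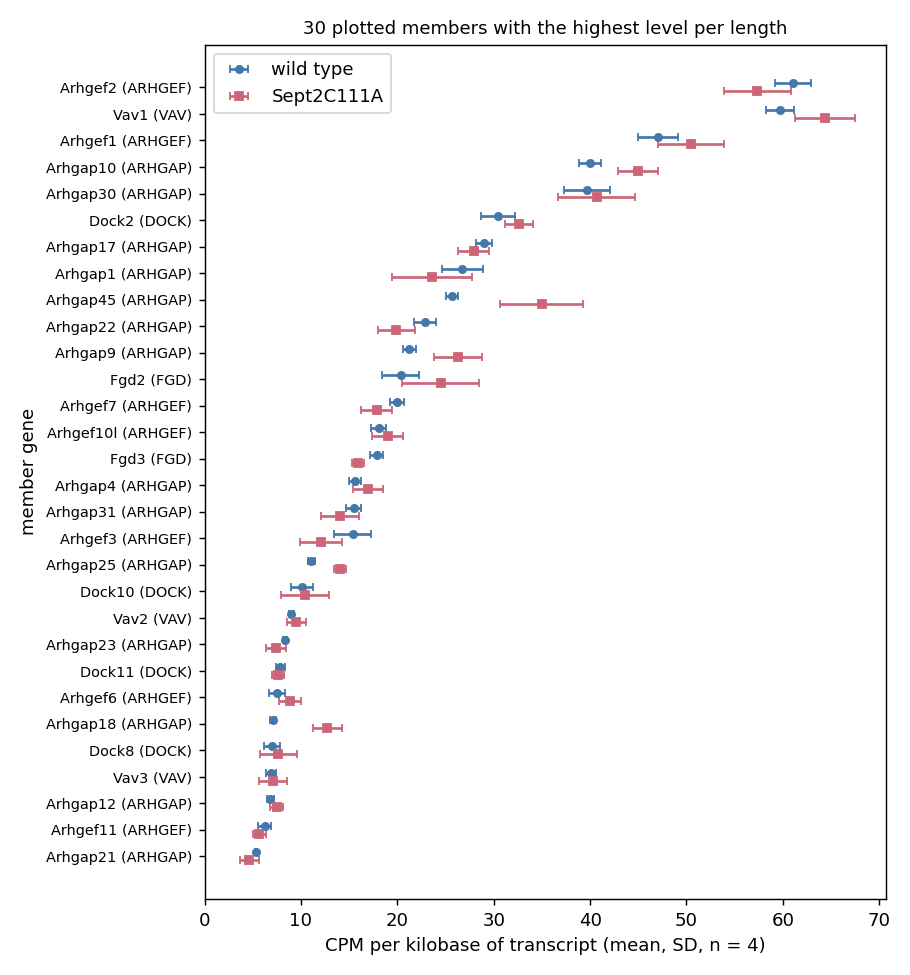
CPM per kilobase of transcript for the 30 of 67 plotted members with the highest wild-type level, as mean and SD over 4 libraries, wild type in blue circles and Sept2C111A in red squares. Arhgef2 and Vav1 lead, and Arhgap45 shows the widest separation of the genotypes among the top 10.

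The members, like most tested genes, differed more among the Sept2C111A than among the wild-type libraries. The median SD of log2 CPM was 0.11 in wild type and 0.23 in Sept2C111A, and Sept2C111A was the wider group in 60 of 69 members. Over all tested genes the medians were 0.10 and 0.18, and Sept2C111A was the wider group in 9862 of 12462 genes. Sept2C111A library 3 was the lowest of its group in 40 members and library 4 the highest in 41. Among DOCK genes each held for 8 of 10. Dock4, a Rac activator picked with its values in view, measured 37.4, 30.9, 22.1 and 46.8 CPM in Sept2C111A libraries 1 to 4, beside 34.4 to 48.2 CPM in wild-type libraries. The median log2 difference between libraries 4 and 3, on log2(CPM + 0.5), was 0.33 over the members and 0.02 over all tested genes with a length. This difference rose with transcript length, with a Spearman rank correlation of 0.57 over the 69 members and 0.60 over 12325 genes, which share the 2 libraries. Members above 5 kb had a median difference of 0.48 and those up to 5 kb of 0.16, while all genes of these length classes had 0.35 and -0.07. The members' median transcript length was 5271 bases, that of all tested genes 3152 bases. The log2 fold change between genotypes had a rank correlation with length of -0.29 over the members and -0.28 over all genes. In a fit with the length trend of each library removed, all 9 calls were kept and Arhgap35 was called lower and Arhgef6 higher, so that 11 members were called, where 11.6% of all tested genes were.

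**Figure D4:**
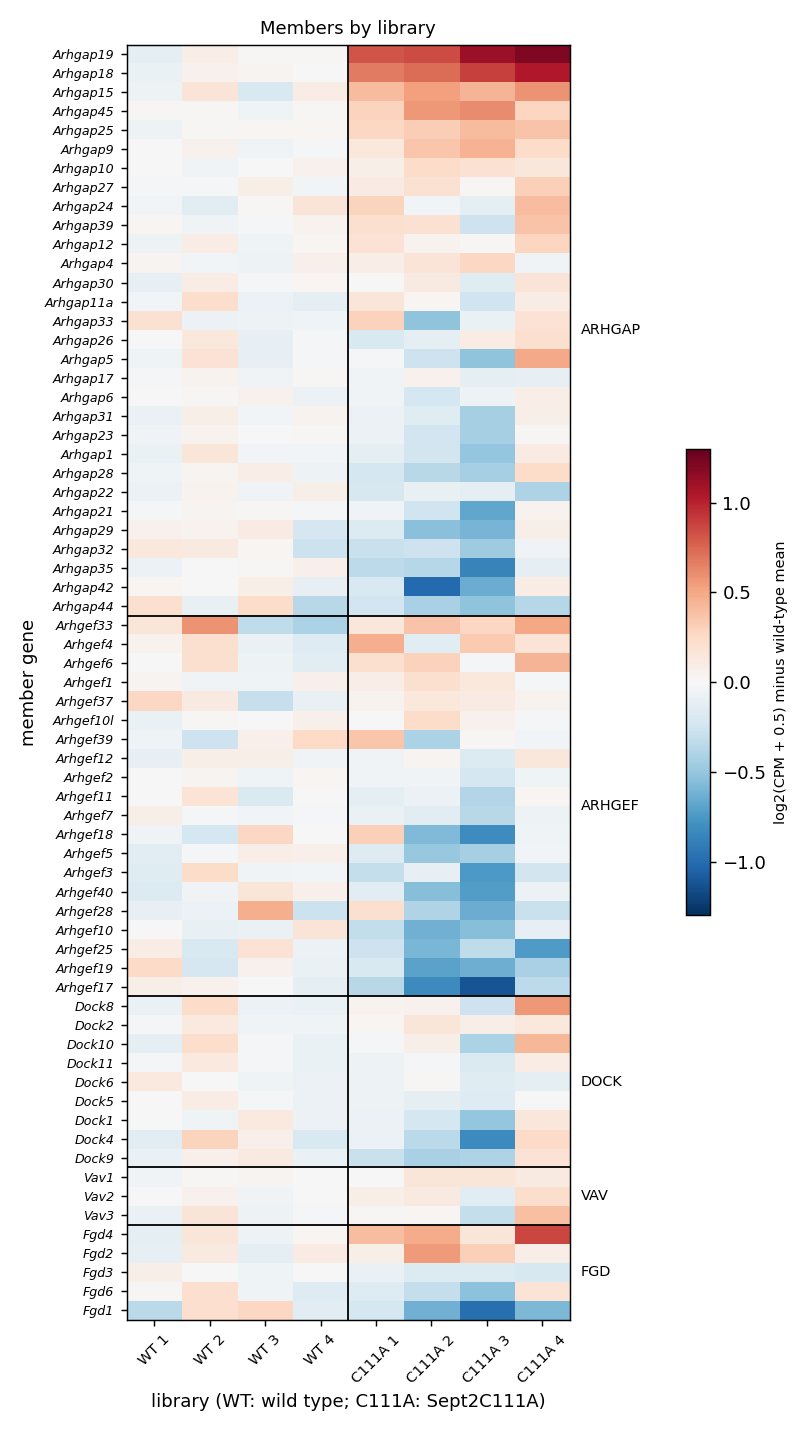
Level of 67 of the 69 members in each library as log2(CPM + 0.5) minus the wild-type mean, red for higher and blue for lower, ordered within subfamilies by fold change. Arhgap19 and Arhgap18 are red in all 4 Sept2C111A libraries, and many blue cells lie in Sept2C111A library 3.

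**Figure D5:**
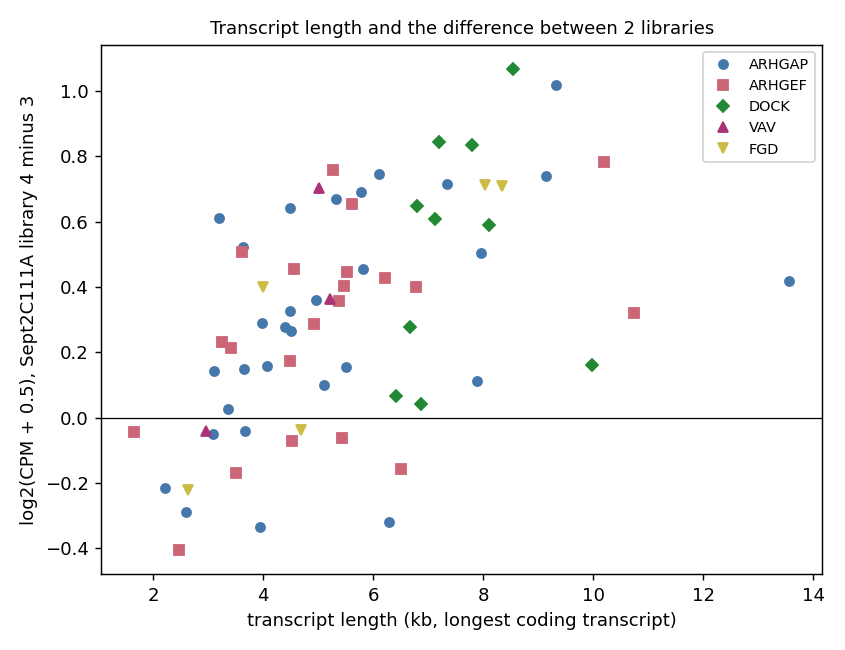
Difference of log2(CPM + 0.5) between Sept2C111A libraries 4 and 3 against transcript length in kilobases, 1 point per member, marked by subfamily. Points above 5 kb lie mostly above 0 (median 0.48), those up to 5 kb closer to it (median 0.16).

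The genes around these regulators were taken from lists of the pathway. Of 22 genes for GTPases of this family 1 fell and 0 rose. Rhob, the immediate-early relative of RhoA, measured 172, 158, 163 and 156 CPM in wild-type and 138, 117, 135 and 123 CPM in Sept2C111A libraries (log2 fold change -0.34, SE 0.0693, edgeR adjusted p = 0.0178). All Sept2C111A libraries were lower, and the call ended without Sept2C111A library 2 or without wild-type library 1 or 3 (adjusted p 0.0606 to 0.0783). None of the 3 GDP dissociation inhibitor genes, which hold GTPases in the cytosol, was called by edgeR or in any of the 18 other fits, and 0 had an unadjusted p under 0.05. Arhgdia, the most abundant, measured 1422 to 1589 and 1299 to 1768 CPM. Of 10 genes of DOCK partners and scaffolds edgeR called 0, with 3 at an unadjusted p under 0.05 and 0 by DESeq2 and by limma voom. Without Sept2C111A library 4 edgeR called 2 of them lower, where it called 16.5% of all tested genes. Mob1a, a kinase adaptor and the most abundant of them, measured 148 to 175 CPM in wild-type and 99.3 to 193 CPM in Sept2C111A libraries.

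Among 30 tested genes on the list of exchange factors outside the naming pattern 1 fell and 0 rose. The list includes Tagap, by its name a GTPase-activating protein, which was not called. The gene that fell was Farp1, a Rac exchange factor with a FERM domain. Farp1 measured 10.8 to 12.9 CPM in wild-type and 6.94 to 9.74 CPM in Sept2C111A libraries (log2 fold change -0.49, edgeR adjusted p = 0.0417). The call ended when each wild-type library in turn, or Sept2C111A library 2 or 3, was left out (adjusted p 0.0608 to 0.138), in the blocked fit (0.0619), and without libraries 2 and 3 together, at a log2 fold change of -0.29 (0.160). The share called, 3.33%, is set beside 6.46% of all tested genes.

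Of 47 tested effector genes 1 rose and 2 fell, or 6.38%. Abi3, a subunit of the WAVE complex, measured 35.2, 29.5, 31.3 and 34.4 CPM in wild-type and 48.5, 56.9, 60.1 and 41.7 CPM in Sept2C111A libraries (log2 fold change 0.67, SE 0.112, edgeR adjusted p = 0.00690). Daam1, a formin gene, measured 27.3 to 31.2 CPM in wild-type and 18.2 to 22.9 CPM in Sept2C111A libraries (log2 fold change -0.47, edgeR adjusted p = 0.0106). Neither gene overlapped between the groups, and both calls were kept in all 18 other fits. Cdc42ep1, which encodes a Cdc42 effector of the Borg family that binds septins, measured 12.7, 10.5, 12.2 and 11.9 CPM in wild-type and 9.79, 7.47, 9.21 and 8.04 CPM in Sept2C111A libraries (log2 fold change -0.46, SE 0.107, edgeR adjusted p = 0.0316). The call ended without Sept2C111A library 2 and without wild-type library 1, 3 or 4 (adjusted p 0.0824 to 0.109), as did leaving out libraries 2 and 3 together (0.0860). Cdc42ep4, of the same family and picked with its values in view, had 35.6 to 38.1 and 28.2 to 33.7 CPM, without overlap and just short of the threshold (edgeR adjusted p = 0.0520). The effector medians were lower than 0 as well, at -0.14, with 35 of 47 log2 fold changes negative, beside 6002 of 12462 over all tested genes.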

How the data were processed

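Poly(A)-selected RNA of 8 samples, 4 wild-type and 4 Sept2C111A, was sequenced per the labels' protocols, and groups were taken from the sample labels. The authors deposited expected counts per gene symbol, estimated numbers of reads that need not be whole. Bowtie2, RSEM 1.3.1, DESeq2 1.4.5 and mm10 are listed, per the submitters' processing notes, without their roles. For the annotation and the strandedness, sources used here say nothing. If strand was not used, Arhgap15 reads and those of its antisense neighbour Arhgap15os cannot be told apart.

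Counts were rounded, filtered with filterByExpr (minimum count 10), normalized by TMM and tested with edgeR 4.0.16 (quasi-likelihood F test, R 4.3.3), two-sided and on genotype alone, with p-values adjusted by Benjamini-Hochberg over 12462 genes. SE is the absolute log2 fold change over the square root of F, and 95% intervals use the t distribution of the fit. The members, lists, markers and motifs were chosen with earlier results of these data known. Named were Septin2, all called members, the 3 most abundant and the 2 with the smallest p not called in each subfamily, members at the count minimum, and called or else the most abundant list genes. Others are marked. Results of some members and of a pathway list are not reported here. Gene lengths came from GENCODE M21 transcripts (98.9% of tested genes, all 69 members) and promoter windows and coordinates from RefSeq GRCm38.p6.

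Alternatives were DESeq2 1.42.0, limma 3.58.1 voom with and without sample weights, other normalizations, filters and thresholds, a replicate block, libraries left out, and, chosen after seeing the data, a loess removal of each library's trend with transcript length. Deviations of same-numbered libraries were weakly correlated, which cannot settle whether the libraries were paired. The scripts were tested on simulated counts. No library was a copy of another: the lowest mean chi-square per gene between 2 libraries was 3.87, where sampling noise gives about 1.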

Additional observations from a re-analysis of the deposited data

Results flagged for a closer look

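Each member was checked in each genotype for a library whose gap to the nearest of the others, as a share of the range of the 4 libraries, exceeded Dixon's 95% critical value. Of 138 such groups 6 had one, or 4.35%, and chance gives about 1 in 20. Wild-type library 3 was low for Arhgap45, at 97.7 CPM where the others measured 102 to 103 CPM. Wild-type library 1 was low for Arhgap25, at 38.7 CPM beside 41.1 to 41.5 CPM, and high for Arhgap33, at 1.29 CPM beside 0.980 to 1.00 CPM. Wild-type library 2 was high for Dock2, at 212 CPM beside 188 to 192 CPM, and for Dock8, the Cdc42 activator lost in a human immunodeficiency, at 64.6 CPM beside 51.6 to 51.8 CPM. Sept2C111A library 3 was low for Arhgef2, at 234 CPM beside 264 to 266 CPM. Of these genes Arhgap45 and Arhgap25 were called between the genotypes.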

How the results depend on the processing

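The 7 members called higher numbered 5 to 8 under the other normalizations, filters and tests, and 3 at a threshold of 0.01. The 2 called lower numbered 5 with DESeq2, 1 with the replicate block, 1 without Sept2C111A libraries 2 and 3 together, 0 at a threshold of 0.01 and 5 at 0.1. Leaving out each library in turn gave 4 to 7 higher and 0 to 7 lower members. The highest count of lower members came without Sept2C111A library 4, where 16.5% of all tested genes were called. No member changed sign between a call and another fit. Over all genes, 428 were called higher and 377 lower. DESeq2 gave 704 and 746, voom with sample weights 665 and 678, removal of the length trend 740 and 708, leaving out Sept2C111A libraries 2 and 3 gave 282 and 210, thresholds of 0.01 and 0.1 gave 136 and 84, and 809 and 817, and leaving out each library gave 162 to 1094 and 104 to 983. The replicate block gave 242 higher. Same-numbered libraries deviated from their group means with correlations of 0.137, 0.0956, -0.023 and -0.237 for numbers 1 to 4. These values cannot exclude pairing by number, because each rests on few libraries, and the labels do not state it. Septin2 passed with DESeq2 (log2 fold change -0.27), with sample weights (-0.26) and without Sept2C111A libraries 2 and 3 (-0.37), and without single libraries its value ran from -0.31 to -0.20. Members near 1 CPM rest on few counts, and changes in them were not detectable at this depth unless large.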
